A study of Mus musculus with 4 samples.

Results

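A set of 10 genes known as regulators of hair follicle formation was followed in newborn mouse epidermis: Shh, Ptch1, Gli1, Edar, Foxn1, Hoxc13, Msx2, Dlx3, Lhx2 and Sox9. They were taken by gene name for their known roles, with earlier results of these data known, and make up 10 of the 54752 gene identifiers in the tables. All 10 passed the filter on low values, among 13609 protein-coding genes tested. RNA-seq of total RNA compared the epidermis of 2 Skiv2l fl/fl K14-Cre pups with that of 2 Skiv2l ctl pups, all C57BL/6 and at the newborn stage P0. In the Skiv2l fl/fl K14-Cre pups, both Skiv2l alleles carried loxP sites and Cre was driven by the K14 promoter, which is active in basal keratinocytes and in follicle epithelium; these are called knockout pups here. Skiv2l encodes the helicase of the SKI complex, which feeds cytoplasmic RNA to the exosome. The Skiv2l ctl group pooled littermates that were Skiv2l fl/fl, Skiv2l fl/+ or Skiv2l fl/+ K14-Cre. Which of these each control pup carried is not given, so any effect of Cre alone cannot be told apart from the loss of Skiv2l.

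Hair follicles form when the epidermis and the mesenchyme beneath it signal to each other. Wnt and ectodysplasin signals, the latter received by Edar, set out the placodes, and Sonic hedgehog (Shh) made by the placode epithelium drives their growth downward. Cells of the hair matrix later turn on transcription factors such as Foxn1, Hoxc13, Msx2 and Dlx3, which control the differentiation of the hair shaft, while Lhx2 and Sox9 mark and maintain follicle progenitors. In the mouse, follicles of different types start at different times before birth, so newborn skin holds follicles at several stages.

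The tissue label was checked against keratinocyte markers. All 11 listed markers passed the filter, summing to 31420 and 32620 FPKM in the control pups and 28520 and 31440 FPKM in the knockout pups. Krt1 and Krt10 made up most of this sum. Within it, Krt14 and Itgb4 rose (log2 fold changes 2.05 and 0.60, limma adjusted p = 0.000171 and 0.00662). Lor and Krt1 fell (-0.92 and -0.51, limma adjusted p = 0.00109 and 0.0401), and the other 7 did not pass an adjusted p under 0.05. When each library was scaled to its median, Krt1 did not pass either (limma adjusted p = 0.177). FPKM are fragment counts scaled for transcript length and library size. Comparisons of level between different genes still depend on the measure, as described below for coverage. Skiv2l itself stood at 19.3 and 19.1 FPKM in the Skiv2l ctl pups and at 10.8 and 8.56 FPKM in the knockout pups, a log2 fold change of -0.92 (SE 0.12, limma adjusted p = 0.00368). Depth was similar, at 5.84 to 6.27 aligned gigabases per library judged by coverage divided by FPKM, and knockout pup 2 had the fewest genes above 0.5 FPKM (16138, against 17384 to 17761 in the others). Endothelial and muscle markers were close to absent, with summed levels of at most 0.883 and 0.858 FPKM and Emcn at 0 in all 4 libraries.

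Promoter sequences are shown for members that fell and for one that did not, so that the starts of Ptch1, Edar and Lhx2 can be read beside that of Foxn1. Each is the 250 bases before a RefSeq gene start on GRCm38.p6, read 5′ to 3′ on the strand of the gene, and none overlaps an annotated exon. The Ptch1 window lies within the span of the gene as the files give it, since other Ptch1 transcripts start further upstream. Capitals mark matches to the motifs searched on both strands. The motifs were the GLI motif GACCACCCA and its core CCACCCA, the TCF/LEF motifs CTTTGAA and CTTTGAT, the CCAAT box (CCAAT) and the GC box (GGGCGG), of which GACCACCCA contains the core. The motif CTTTGAT was added after a sequence had been seen.
Ptch1, chr13:63565736-63565985, minus strand: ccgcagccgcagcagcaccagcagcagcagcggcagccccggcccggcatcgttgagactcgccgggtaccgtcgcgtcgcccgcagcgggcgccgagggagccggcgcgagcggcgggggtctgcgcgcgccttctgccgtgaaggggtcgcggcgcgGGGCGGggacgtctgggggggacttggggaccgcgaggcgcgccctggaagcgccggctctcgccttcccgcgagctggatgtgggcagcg
Edar, chr10:58675697-58675946, minus strand: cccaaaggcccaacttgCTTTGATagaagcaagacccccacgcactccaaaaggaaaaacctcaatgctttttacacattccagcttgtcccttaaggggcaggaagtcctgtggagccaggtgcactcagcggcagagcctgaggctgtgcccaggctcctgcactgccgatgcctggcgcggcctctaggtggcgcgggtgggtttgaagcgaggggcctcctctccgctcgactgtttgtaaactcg
Lhx2, chr2:38339031-38339280, plus strand: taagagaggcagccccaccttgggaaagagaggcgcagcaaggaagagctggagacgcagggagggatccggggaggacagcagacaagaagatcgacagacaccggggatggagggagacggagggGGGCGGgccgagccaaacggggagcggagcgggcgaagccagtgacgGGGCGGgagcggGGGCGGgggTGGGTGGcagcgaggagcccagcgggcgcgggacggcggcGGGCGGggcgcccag
Foxn1, chr11:78386609-78386858, minus strand: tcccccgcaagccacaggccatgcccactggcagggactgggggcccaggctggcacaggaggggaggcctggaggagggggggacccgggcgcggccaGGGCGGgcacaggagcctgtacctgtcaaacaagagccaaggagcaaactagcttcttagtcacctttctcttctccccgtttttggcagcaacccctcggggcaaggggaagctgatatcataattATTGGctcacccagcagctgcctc

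Of the 10 members, 5 had a RefSeq window; Shh, Gli1, Hoxc13, Dlx3 and Sox9 had none. The Msx2 window and the other Lhx2 window overlap an annotated exon of their own gene and are not printed, and that Lhx2 window held none of the motifs. The full GLI motif was in none of the 4 printed windows and in 0.225% of all 32851 windows of the same length. Its core was in the printed Lhx2 window, once, and in 8.11% of all windows. The TCF/LEF motif CTTTGAT was in the Edar window and in 3.21% of all windows, whereas CTTTGAA, found in 4.46% of all windows, was in none of the 4. GC boxes were in the printed Ptch1, Lhx2 and Foxn1 windows, with 4 of them in Lhx2, and in 32.7% of all windows. A CCAAT box was in the Foxn1 window and in 33.8% of all windows. The GC content ran from 58.8% in Edar and 63.2% in Foxn1 to 72.8% in Lhx2 and 78.4% in Ptch1. A match is a description of letters and not a binding site.

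In knockout epidermis 6 of the 10 regulators fell, none rose, and 4 did not pass the test. The 6 were Shh, Edar, Ptch1, Gli1, Lhx2 and Hoxc13, in the order of their log2 fold changes from -1.87 to -0.50. Over all 13609 genes tested, 25.4% were called lower and 8.99% were called higher by the same limma test at an adjusted p under 0.05. Without adjustment, at p under 0.05, 7 members were lower and 0 were higher. The share of all tested genes at this unadjusted threshold was not taken, so this count has no matching background. The median log2 fold change was -0.65 over the 10 members and -0.20 over all tested genes, so a shift in the same direction ran through the whole table. When each library was scaled to its median, 11.9% of all genes were called lower and 13.9% higher, and 5 members stayed lower, with Hoxc13 no longer past the threshold (adjusted p = 0.117). Both knockout pups lay below both Skiv2l ctl pups for 8 members, where 55.3% of all tested genes showed this order. In bulk epidermis, fewer follicle cells and less RNA per follicle cell cannot be told apart.

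**Figure D1:**
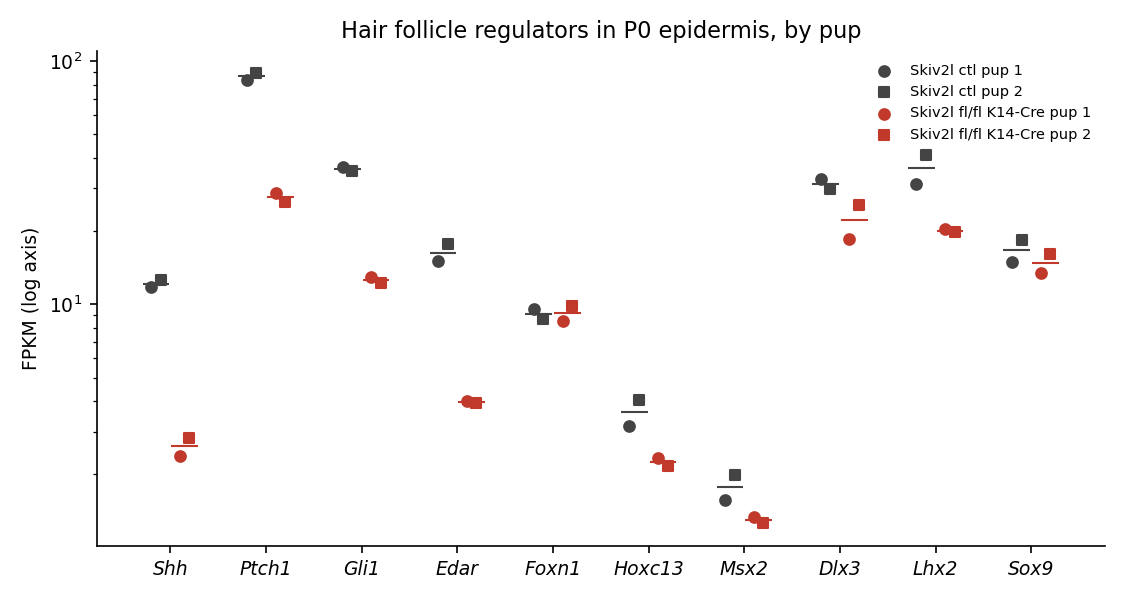
FPKM of the 10 regulators in each of the 4 libraries, on a log axis, with grey symbols for Skiv2l ctl pups, red symbols for Skiv2l fl/fl K14-Cre pups and bars at the group means. The groups stand apart for Shh, Ptch1, Gli1 and Edar, and overlap for Foxn1 and Sox9.

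Shh, the secreted Hedgehog ligand, lies on chromosome 5 from 28456815 to 28467256 on the minus strand (GRCm38, ENSMUSG00000002633.4). It was at 11.7 and 12.6 FPKM in the Skiv2l ctl pups and at 2.39 and 2.82 FPKM in the knockout pups. The control pups were the high ones, and the lowest control value was 4.16 times the highest knockout value. The means were 12.2 ± 0.601 and 2.61 ± 0.307 FPKM (SD, n = 2 each), 4.67-fold lower in the knockout pups. The log2 fold change was -1.87 (SE 0.12, 95% interval -2.15 to -1.59, limma adjusted p = 0.000319). A larger fall was seen in 0.309% of the tested genes.

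Ptch1, the receptor that binds Shh and is itself switched on by the pathway, lies on chromosome 13 from 63508328 to 63573598 on the minus strand. Its levels were 83.9 and 89.1 FPKM in the Skiv2l ctl pups against 28.8 and 26.4 FPKM in the knockout pups. Ptch1 had the highest FPKM of the 10 regulators in both groups, and the groups did not overlap. The log2 fold change was -1.61 (SE 0.09, 95% interval -1.83 to -1.40, limma adjusted p = 0.000208).

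Gli1, a transcription factor whose RNA level is widely read as a measure of Hedgehog signalling, lies on chromosome 10 from 127329882 to 127341974 on the minus strand. It stood at 36.8 and 35.4 FPKM in the Skiv2l ctl pups and at 12.9 and 12.2 FPKM in the knockout pups. Values within each genotype were close, and the groups lay far apart. Its mean was 2.88-fold lower, with a log2 fold change of -1.46 (SE 0.09, 95% interval -1.67 to -1.24, limma adjusted p = 0.000291). Shh and Gli1 share exon sequence with genes on the opposite strand, and whether counting used strand is not given in the sources used here. These partners were low: the genes opposite Shh were at most 0.856 FPKM in every library, and Arhgap9, opposite Gli1, was at 1.57 and 2.31 FPKM in the controls and 1.30 and 1.09 FPKM in the knockout pups.

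The remaining genes of the Hedgehog pathway were taken from a list of 16, of which 13 passed the filter. Of these, 7 fell (53.8%, against 25.4% of all tested genes), 0 rose and 6 did not pass the test, with a median log2 fold change of -0.35 against -0.20 over all. With median scaling 5 fell and 0 rose. Cdon, a coreceptor for Shh, was at 17.6 and 16.0 FPKM in the control pups and at 3.66 and 4.13 FPKM in the knockout pups (log2 fold change -1.86, SE 0.11, limma adjusted p = 0.000287). Gas1, another coreceptor, fell by 1.38 on the log2 scale and Disp1, which releases the ligand from the cell that makes it, fell by 1.08 on that scale (limma adjusted p = 0.00304 and 0.00121). Smo, the transducer that Patched holds in check, was at 23.5 and 24.8 FPKM against 22.2 and 20.9 FPKM (log2 fold change -0.15, limma adjusted p = 0.209). The other ligand genes, Ihh and Dhh, were at most 0.238 FPKM in every library and were not tested. Smo, Ihh and Dhh were named after their values were seen.

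Edar, the ectodysplasin receptor of the placode, lies on chromosome 10 from 58600789 to 58675654 on the minus strand. It was at 15.0 and 17.6 FPKM in the Skiv2l ctl pups and at 3.99 and 3.91 FPKM in the knockout pups. The highest knockout value was well under the lowest control value, and its mean was 4.13-fold lower. This gave a log2 fold change of -1.80 (SE 0.11, 95% interval -2.08 to -1.53, limma adjusted p = 0.000339).

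Another 10 genes of the ectodysplasin pathway were listed, and all 10 passed the filter. Of these, 5 fell (50%, against 25.4% of all tested genes) and 0 rose, with a median log2 fold change of -0.35, and with median scaling 3 fell. Tnfrsf19, a receptor of the same family, was at 53.5 and 50.2 FPKM in the controls and at 17.0 and 17.1 FPKM in the knockout pups (log2 fold change -1.55, SE 0.08, limma adjusted p = 0.000208). Edaradd, the adaptor that binds the tail of Edar, was at 6.83 and 6.68 FPKM against 2.997 and 3.62 FPKM (log2 fold change -0.85, SE 0.12, limma adjusted p = 0.00431). The ligand gene Eda fell less, by 0.44 on the log2 scale (limma adjusted p = 0.0291), and was not called with median scaling (adjusted p = 0.124). Relb, an NF-kB subunit, fell by 0.64 on the log2 scale (limma adjusted p = 0.0098).

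Among the 4 transcription factors of the hair matrix and shaft, the values were mixed. Foxn1, the factor missing in nude mice, lies on chromosome 11 from 78357577 to 78386558 on the minus strand. It was at 9.53 and 8.74 FPKM in the Skiv2l ctl pups and at 8.54 and 9.81 FPKM in the knockout pups. The groups overlapped, and the means were 9.14 ± 0.559 and 9.18 ± 0.897 FPKM (SD, n = 2 each). The log2 fold change was 0.0038 (SE 0.11, limma adjusted p = 0.982), with a 95% interval of -0.27 to 0.28 that leaves out falls of the size seen for Shh or Edar.

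Hoxc13, which controls hair keratin genes, lies on chromosome 15 from 102921103 to 102928814 on the plus strand. Its levels were 3.17 and 4.03 FPKM in the Skiv2l ctl pups and 2.33 and 2.16 FPKM in the knockout pups. The groups did not overlap, but the control pups differed from each other by about as much as the lowest control differed from the highest knockout value. Hoxc13 fell, with a log2 fold change of -0.50 (SE 0.14, 95% interval -0.84 to -0.16, limma adjusted p = 0.0385). The call was lost with median scaling, with quantile normalization (adjusted p = 0.163) and without any 1 of the 4 libraries (adjusted p from 0.0712 to 0.213).

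Dlx3, a homeobox factor of the matrix and of differentiating epidermis, lies on chromosome 11 from 95120119 to 95125296 on the plus strand. It was at 32.8 and 29.9 FPKM in the Skiv2l ctl pups and at 18.6 and 25.7 FPKM in the knockout pups. Both knockout values were below both control values, and these pups differed most from each other among the 10 regulators. The log2 fold change was -0.50 (SE 0.15, 95% interval -0.88 to -0.12), and the limma adjusted p of 0.0503 did not pass the threshold. Without knockout pup 2 it was -0.72 and passed (limma adjusted p = 0.011), and without knockout pup 1 it was -0.28 and did not (limma adjusted p = 0.0912). Leaving out a control pup gave -0.44 and -0.56, neither past the threshold (limma adjusted p = 0.237 and 0.161).

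Msx2, a homeobox factor needed to keep hair in its growth phase, lies on chromosome 13 from 53466884 to 53473074 on the minus strand. It was the least abundant regulator, at 1.56 and 1.98 FPKM in the Skiv2l ctl pups and at 1.34 and 1.26 FPKM in the knockout pups. The groups did not overlap, and the control pups were further apart than the lowest control and the highest knockout value. The log2 fold change was -0.27 (SE 0.14, 95% interval -0.61 to 0.08, limma adjusted p = 0.184), on a scale with 1 added to each FPKM, which understates changes at this level.

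Other transcription factors of the matrix and shaft came from a list of 18, of which 14 passed the filter. Of these, 4 fell, 2 rose and 8 did not pass the test, with a median log2 fold change of 0.09. The shares of 28.6% lower and 14.3% higher were near those of all tested genes (25.4% and 8.99%). With median scaling 3 fell and 3 rose. Foxi3, a forkhead factor of placodes and matrix, was at 29.3 and 32.1 FPKM in the Skiv2l ctl pups and at 7.35 and 5.57 FPKM in the knockout pups (log2 fold change -2.10, SE 0.14, limma adjusted p = 0.000356). Gata3, a factor of the inner root sheath, fell by 0.91 on the log2 scale, and Barx2 fell by 0.62 on that scale (limma adjusted p = 0.00411 and 0.00407). Vdr, the vitamin D receptor, rose from 8.21 and 10.4 FPKM to 17.0 and 18.3 FPKM (log2 fold change 0.87, SE 0.13, limma adjusted p = 0.00486).

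Lhx2, a LIM homeobox factor of placodes and follicle stem cells, lies on chromosome 2 from 38339281 to 38369733 on the plus strand. It was at 31.3 and 41.2 FPKM in the Skiv2l ctl pups and at 20.3 and 19.9 FPKM in the knockout pups. The knockout values were almost equal and below both controls, while the control pups were well apart. Its mean was 1.80-fold lower, with a log2 fold change of -0.81 (SE 0.14, 95% interval -1.14 to -0.47, limma adjusted p = 0.00797). Without Skiv2l ctl pup 2 the adjusted p was 0.0517, short of the threshold.

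Sox9, which marks the outer root sheath and the stem cells of the follicle, lies on chromosome 11 from 112782224 to 112787760 on the plus strand. It was at 15.0 and 18.4 FPKM in the Skiv2l ctl pups and at 13.4 and 16.2 FPKM in the knockout pups. The groups overlapped, and the log2 fold change was -0.16 (SE 0.14, 95% interval -0.50 to 0.17, limma adjusted p = 0.375), and its sign turned with median scaling, to 0.04.

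**Figure D2:**
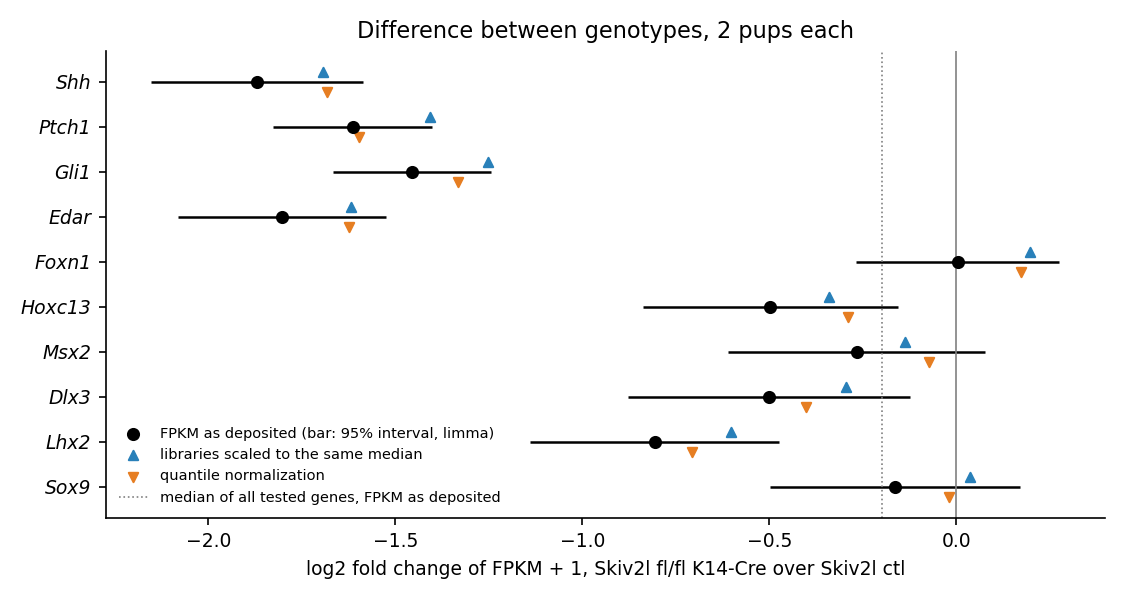
Log2 fold change of each regulator (Skiv2l fl/fl K14-Cre against Skiv2l ctl, on log2(FPKM + 1)) with its 95% limma interval for the FPKM as deposited, and the values with median scaling and quantile normalization as triangles. Shh, Ptch1, Gli1 and Edar lie at -1.25 or lower on all 3 scales, and the intervals of Foxn1, Msx2 and Sox9 span 0; the dotted line is the median of all tested genes, -0.20.

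The other 17 listed genes of follicle progenitors all passed the filter, and 12 fell (70.6%, against 25.4% of all tested genes), 3 rose and 2 did not pass the test (median log2 fold change -0.58). With median scaling 9 fell and 3 rose. Krt15, a keratin of basal and stem cells, was at 462 and 428 FPKM in the Skiv2l ctl pups and at 92.1 and 155 FPKM in the knockout pups (log2 fold change -1.89, SE 0.23, limma adjusted p = 0.00258). The SOX factor genes Sox4 and Sox21 fell by 1.55 and 1.43 on the log2 scale (limma adjusted p = 0.000308 and 0.0011). Krt17, a keratin of follicles that is also made in stressed epidermis, rose from 498 and 519 FPKM to 1481 and 1301 FPKM (log2 fold change 1.45, SE 0.10, limma adjusted p = 0.00046).

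Signals exchanged between placode and dermis were listed as 18 genes, and 16 passed the filter. Of these, 11 fell (68.8%, against 25.4% of all tested genes), 1 rose and 4 did not pass the test, with a median log2 fold change of -0.70, and with median scaling 9 fell and 1 rose. Lef1, a nuclear partner of beta-catenin, was at 31.5 and 33.6 FPKM in the Skiv2l ctl pups and at 9.74 and 8.76 FPKM in the knockout pups (log2 fold change -1.71, SE 0.10, limma adjusted p = 0.000235). The Wnt inhibitor Dkk4 was at 2.83 and 2.32 FPKM in the controls and at 0.254 and 0.0767 FPKM in the knockout pups (log2 fold change -1.62, SE 0.16, limma adjusted p = 0.00126). Dkk4 and Fgf20 are known as targets of placode signalling, and Fgf20, at 1.43 and 2.77 FPKM against 0.170 and 0.218 FPKM, fell by 1.34 on the log2 scale (limma adjusted p = 0.00786). Pdgfa, a signal from epidermis to dermis, fell by 1.34 on that scale (limma adjusted p = 0.000355). The 1 added to each FPKM understates the changes of low genes, so these log2 values do not order the falls by size. By mean FPKM, Dkk4 was 15.55-fold, Fgf20 10.83-fold, Lef1 3.52-fold and Pdgfa 2.57-fold lower in the knockout pups. The gene that rose was Nog, a BMP inhibitor, by 0.48 on the log2 scale (limma adjusted p = 0.0453), and it was named after its value was seen. It was at 0.246 and 0.193 FPKM in the controls and at 0.692 and 0.709 FPKM in the knockout pups. Nog thus passed the filter of 0.5 FPKM only through the knockout pups, where it was high. Dkk4 and Fgf20 passed it only through the control pups, where they were high.

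Products of differentiated follicle layers varied more between the control pups. Of 11 inner root sheath genes, 10 passed the filter, 2 fell and 0 rose (median log2 fold change -0.21), and with median scaling 1 fell. The share of 20% lower was under the 25.4% of all tested genes, and the median was close to their -0.20. Tchh, which encodes trichohyalin, was at 10.4 and 13.3 FPKM in the Skiv2l ctl pups and at 4.84 and 4.88 FPKM in the knockout pups (log2 fold change -1.12, limma adjusted p = 0.00252). Krt27 fell by 0.96 on the log2 scale (limma adjusted p = 0.0249) and was not called with median scaling (adjusted p = 0.0506). Krt71, at 9.25 and 19.7 FPKM against 8.28 and 8.64 FPKM, and Padi3, with a log2 fold change of -0.55, did not pass (limma adjusted p = 0.156 and 0.0595).

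Of 17 hair shaft genes, mostly keratins, 12 were tested, 7 fell (58.3%, against 25.4% of all tested genes) and 2 rose (median log2 fold change -0.90), and with median scaling 4 fell and 2 rose. Their summed level was 16.7 and 33.4 FPKM in the Skiv2l ctl pups and 16.7 and 14.7 FPKM in the knockout pups. The genes that rose, Krt84 and Krt82, carried much of the knockout sums, and without them the sums were 15.1 and 32.4 FPKM against 6.60 and 7.37 FPKM. Krt82 was named, and this sum chosen, after the values were seen. Krt33b was at 1.56 and 3.87 FPKM in the controls and at 0.261 and 0.441 FPKM in the knockout pups (log2 fold change -1.39, SE 0.30, limma adjusted p = 0.0173). Krt86 and Krt34 fell by 1.34 and 1.17 on the log2 scale (limma adjusted p = 0.0251 and 0.0287). Krt84, a keratin of hair cuticle and of tongue papillae, rose from 1.01 and 0.579 FPKM to 7.88 and 6.29 FPKM (log2 fold change 2.17, SE 0.17, limma adjusted p = 0.000674). Hair keratins are close in sequence, so their reads may be split between members by the counting.

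Keratins of the outer root sheath and companion layer were listed as 5 genes, with a median log2 fold change of 3.99. Of these, 4 rose (80%, against 8.99% of all tested genes) and 1 fell (20%, against 25.4%). With median scaling 4 rose and 0 fell. Krt75, a companion layer keratin, was at 0.903 and 2.02 FPKM in the Skiv2l ctl pups and at 16.8 and 10.8 FPKM in the knockout pups (log2 fold change 2.60, SE 0.27, limma adjusted p = 0.00166). The other risers were Krt6a, Krt6b and Krt16, which are also made by wounded interfollicular epidermis, with log2 fold changes of 6.13, 5.79 and 3.99.

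**Figure D3:**
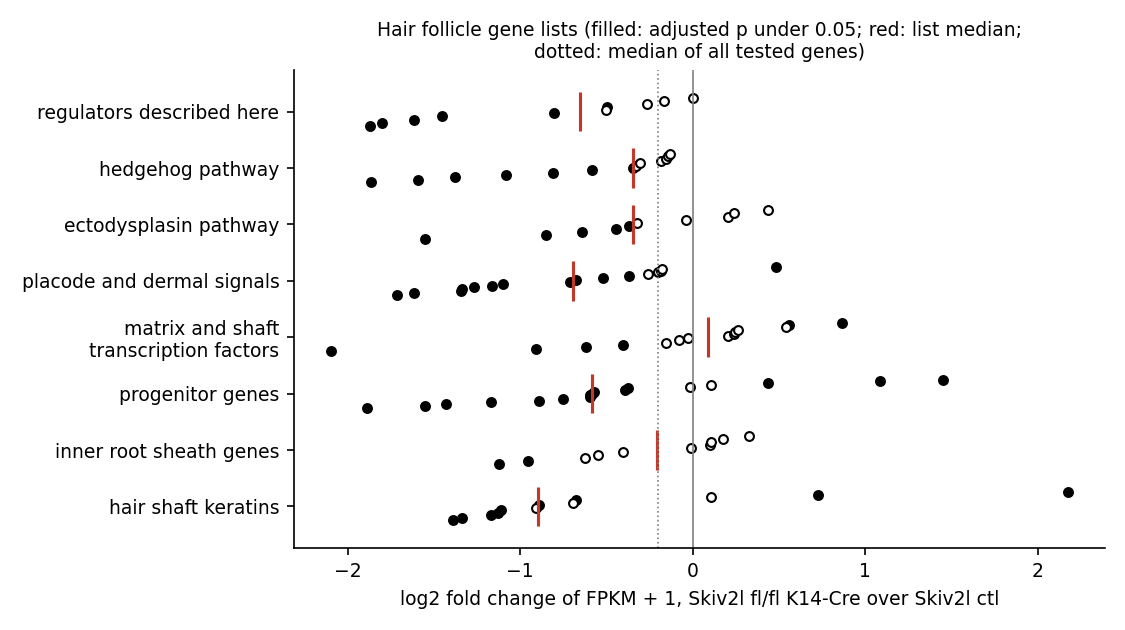
Log2 fold changes (Skiv2l fl/fl K14-Cre against Skiv2l ctl) of the 10 regulators and of the tested genes of 7 follicle gene lists, filled where the limma adjusted p was under 0.05, with the list median as a red bar and the median of all 13609 tested genes as a dotted line. The placode, progenitor and hair shaft lists have medians of -0.70, -0.58 and -0.90, below the all-gene median of -0.20.

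Markers of other cells were set beside these changes. The 11 dermal fibroblast and papilla markers summed to 70.2 and 78.5 FPKM in controls and 26.9 and 29.1 FPKM in knockout pups. Of the 7 that passed the filter, 3 fell (42.9%, against 25.4% of all tested genes) and 0 rose. With median scaling 2 of them fell and 1 rose. The gene that rose was Pdgfra (limma adjusted p = 0.047 with median scaling). It was at 0.299 and 0.2499 FPKM in the controls and at 0.789 and 0.668 FPKM in the knockout pups. Pdgfra thus passed the filter of 0.5 FPKM only through the knockout pups, where it was high. Most of the sum was Dcn, at 57.0 and 62.7 FPKM against 16.9 and 21.4 FPKM. Vcan and Col1a2 were the others of the 3 that fell. Vcan was at 7.75 and 8.23 FPKM against 3.88 and 3.14 FPKM (limma adjusted p = 0.00295). Col1a2 was at 2.60 and 3.58 FPKM against 1.84 and 1.48 FPKM (limma adjusted p = 0.0332), and was not called with median scaling (adjusted p = 0.0783). The fibroblast markers Col1a1 and Col3a1 were at most 1.45 FPKM and the papilla markers Corin and Alx4 at most 0.372 FPKM in every library, and none of the 11 was at 0 in every library. Gli1, Ptch1 and Lef1 are also made by dermal cells of the follicle, whereas Shh is made by its epithelium. The part of dermal cells in the falls was not tested. Leukocyte markers summed to 31.7 and 44.3 FPKM against 19.6 and 17.8 FPKM. Of 7 tested, 3 fell (42.9%, against 25.4% of all tested genes), and 3 fell with median scaling. The 3 were Cd74, Tyrobp and Ptprc. Cd74 was at 13.1 and 16.4 FPKM against 4.61 and 4.39 FPKM (log2 fold change -1.51, limma adjusted p = 0.000857). Cd207 was at most 0.0417 FPKM in every library and was not tested. Melanocyte markers summed to 59.9 and 67.4 FPKM against 62.5 and 76.0 FPKM. Of 7 tested, 1 rose (14.3%, against 8.99% of all tested genes) and 0 fell, and with median scaling 2 rose. Merkel cell markers summed to 5.39 and 7.01 FPKM against 2.85 and 5.70 FPKM, and 0 of 6 were called. Sebocyte markers summed to 24.9 and 33.4 FPKM against 34.4 and 27.4 FPKM. Of 6 tested, 1 rose (16.7%, against 8.99% of all tested genes) and 0 fell, and with median scaling 2 rose.

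Ratios between regulators within a library do not change when all its values are multiplied by the same factor, as in median scaling. Quantile normalization can change them. They were chosen after the values had been seen and are given as a description. Gli1 over Ptch1 was 0.439 and 0.398 in the Skiv2l ctl pups and 0.448 and 0.462 in the knockout pups, so the pair of Hedgehog targets moved almost together. Shh over Sox9 was 0.783 and 0.684 in the Skiv2l ctl pups and 0.178 and 0.175 in the knockout pups, and Shh over Foxn1 was 1.23 and 1.44 against 0.280 and 0.288. Both Shh ratios were apart between the genotypes, with little spread within each. Edar over Sox9 was 1.003 and 0.957 against 0.297 and 0.242, and Ptch1 over Sox9 was 5.59 and 4.84 against 2.14 and 1.63. Lhx2 over Sox9 differed less, at 2.09 and 2.24 against 1.51 and 1.23. Foxn1 over Sox9, at 0.636 and 0.475 against 0.636 and 0.607, overlapped.

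**Figure D4:**
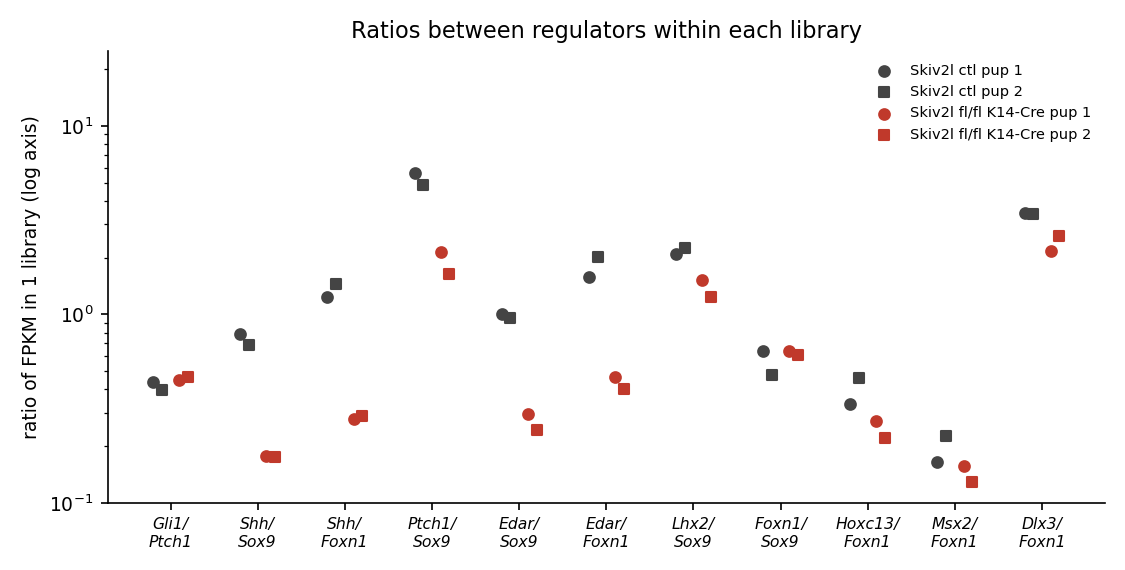
Ratio of the FPKM of 2 genes within each library, on a log axis, for pairs of regulators. Ratios of Shh, Edar and Ptch1 to Sox9 are lower in both Skiv2l fl/fl K14-Cre libraries, and the Foxn1 to Sox9 ratios overlap.

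Ranked by mean FPKM, the Skiv2l ctl order was Ptch1, Lhx2, Gli1, Dlx3, Sox9, Edar, Shh, Foxn1, Hoxc13 and Msx2. Lhx2 and Gli1, Dlx3 and Lhx2, and Sox9 and Edar overlapped between the control pups and so could not be ordered beyond their spread. The knockout order was Ptch1, Dlx3, Lhx2, Sox9, Gli1, Foxn1, Edar, Shh, Hoxc13 and Msx2, with Lhx2, Gli1, Edar and Shh lower in rank by FPKM than in the controls. Among neighbours in that order, Dlx3 and Lhx2 overlapped.

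These orders depend on the measure. The tables also give coverage, the mean read depth per base, which was divided by the aligned gigabases of each library. Lhx2 was then at 4.32 and 5.46 in the Skiv2l ctl pups and at 2.78 and 2.62 in the knockout pups, and its rank in the controls moved from 2 by FPKM to 8 by coverage. By mean scaled coverage the knockout order was Dlx3, Sox9, Ptch1, Foxn1, Gli1, Edar, Lhx2, Shh, Hoxc13 and Msx2, which put Ptch1 at rank 3 and Lhx2 at rank 7, no longer lower in rank than in the controls. FPKM over scaled coverage was 7.4 for Lhx2, 2.03 for Ptch1, 1.38 for Gli1 and Msx2, and 1.0 for the other 6 regulators. Lhx2 has 7 annotated transcripts of 375 to 2840 bases, Ptch1 has 10, Gli1 has 5 and Msx2 has 2, while the other 6 have 1 each. The fall of Lhx2 was -0.66 on the log2 scale by coverage (limma adjusted p = 0.021), and by this measure the same number of regulators, 6, fell. No stretch of 75 bases in the transcripts of the 10 regulators was shared, in the same orientation, with a transcript of another gene, so overlaps with genes on the opposite strand are not counted here.

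**Figure D5:**
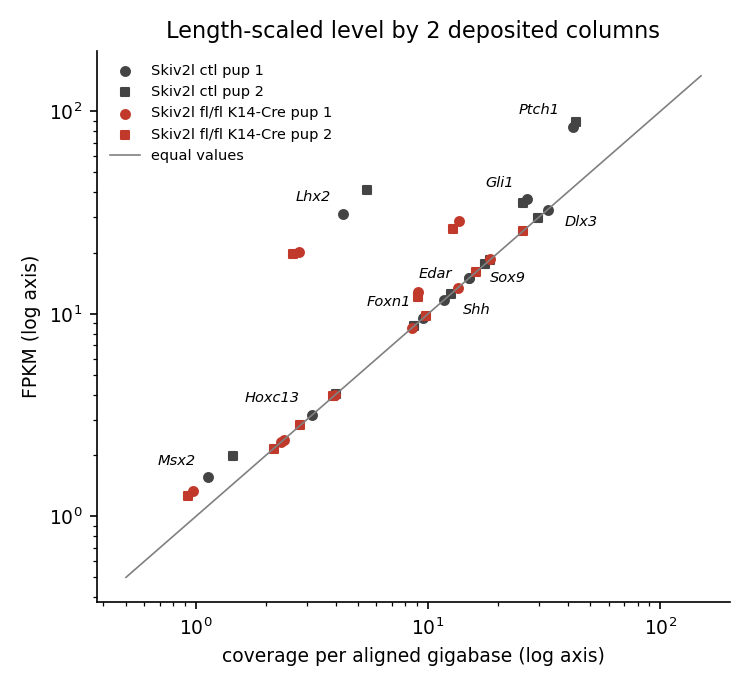
FPKM against coverage per aligned gigabase for each regulator and library, both on log axes, with a line of equal values. Regulators with 1 annotated transcript lie on the line, and Lhx2 lies 7.4 times above it in the controls.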

How the data were processed

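Epidermal total RNA of 4 pups (P0) was sequenced, 1 library per pup. Reads were run through a workflow of the study's institution, and 1 table per library was deposited on GRCm38. FPKM deposited by the authors are scaled for length and library size, TPM deposited by the authors sum to the same total in each library, and coverage, as deposited, is a mean depth per base. Neither the aligner nor the strandedness of counting is given in the sources used here. Depth was taken from coverage over FPKM, and no counting interval can be given.

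FPKM were summed per gene identifier. Of 54752 identifiers, 54037 had the coordinates of GENCODE M21, and 21921 were protein-coding. As in the study's methods, protein-coding genes above 0.5 FPKM in at least 1 library were kept (13609 genes). Groups of 2 and 2 libraries were compared on log2(FPKM + 1) with limma 3.58.1 (R 4.3.3, eBayes with trend, two-sided), and p-values were adjusted by Benjamini-Hochberg over the tested genes, with a threshold of 0.05. The pups are separate animals, and p-values measure the spread between these 4 only. An exact permutation test of 2 against 2 cannot go below p = 0.333, so none was used. The fit was tested on simulated data.

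The 10 regulators and Skiv2l were named, and from each list up to 4 tested genes with the largest absolute log2 fold change, with exceptions marked and 1 gene that the rule names not reported here. Regulators and lists were chosen with earlier results of these data known. Alternatives were a pseudocount of 0.1, FPKM above 1 in at least 2 libraries or no filter, TPM, median scaling, quantile normalization, a replicate block, eBayes without trend, leaving out each library, a threshold of 0.01 and, chosen after seeing the data, coverage per aligned gigabase. Promoter windows came from RefSeq (GRCm38.p6).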

Additional observations from a re-analysis of the deposited data

How the results depend on the processing

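Over 14 alternatives, Shh, Ptch1, Gli1 and Edar stayed lower and past the threshold in every one, with log2 fold changes of -2.18 to -1.68, -1.68 to -1.41, -1.55 to -1.25 and -2.02 to -1.62. Msx2 stayed lower and short of the threshold (-0.41 to -0.07). Lhx2 ran from -0.9997 to -0.60 and lost its call with no filter (adjusted p = 0.107) and without Skiv2l ctl pup 2. Hoxc13 ran from -0.65 to -0.29 and lost its call in 8 alternatives, while Dlx3 ran from -0.72 to -0.28 and gained a call in 5. Foxn1 changed sign with TPM (-0.0422) and over the fits that leave out 1 library (-0.0862 to 0.0938), and Sox9 changed sign with median scaling (0.0368). The number of regulators called lower was 4 to 7, and 0 were called higher in any alternative. Over all genes, 475 were called higher and 927 lower with no filter, 1894 and 1623 with median scaling, 1683 and 1917 with quantile normalization, and 669 and 1279 at an adjusted p under 0.01. Leaving out 1 library gave 497 to 1146 genes higher and 805 to 3135 lower, with the low ends without a Skiv2l ctl pup. With 1 pup left in a group, that pup was assumed to vary like the others. The median of all tested genes moved from -0.20 to -0.03 with median scaling and to -0.05 with quantile normalization. The replicate numbers are not stated to pair the pups, and the correlation of same-numbered deviations was -0.077 over 13609 genes. With 2 pups a group, replicate 2 mirrors replicate 1, so this value cannot exclude a shared litter or batch. With a replicate block 7 regulators fell, and 1264 genes were called higher and 3393 lower. The 95% intervals of Msx2, Foxn1 and Sox9 span 0, so these data, with 2 pups a group, do not show whether their levels differ.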
